A study of Mus musculus with 10 samples.

Results

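The small leucine-rich proteoglycans are secreted matrix proteins, and 8 of their genes were followed here: Dcn, Bgn, Lum, Fmod, Ogn, Omd, Prelp and Aspn. They were found through the array annotation as probe sets assigned to exactly 1 of these symbols. This gave 18 probe sets for all 8 genes, among 22690 probe sets and 12394 genes in all. Where a gene had several, the set with the highest 10-array mean stood for it, and the unit throughout is the log2 RMA value of the array, on which a difference of 1 is a 2-fold change. The study used Affymetrix arrays to profile sorted mammary gland cells of the mouse strain FVB/N, to compare tumour fibroblasts with control fibroblasts and to ask how fibroblasts and stem cells of a tumour might interact. COF are fibroblasts of control glands of WT mice (3 arrays). CAF, the cancer-associated fibroblasts (3 arrays), CSC, the cancer stem cells (2 arrays), and TEC (2 arrays, with TEFs as a further label) were all sorted from tumours of mice with the genotype WAPCre-DNbcatn;HGF. The name WAPCre points to a Cre driven by the promoter of the milk gene Wap, which is active in secretory mammary epithelium. The tumour genotype thus separates CAF from COF as well as the tumour itself, and genotype and tumour cannot be told apart. Age, gating and the number of mice are not stated in the labels. Since arrays of a group may share a mouse, p-values measure only the spread between these samples, which may be technical.

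Each of these proteins has a core of leucine-rich repeats that folds into a curved solenoid. Many carry chains of chondroitin, dermatan or keratan sulfate. They bind the surface of collagen fibrils and shape fibril width and spacing, and several also bind growth factors such as TGF-beta or signal through cell receptors. In the mammary gland they are products mainly of stromal fibroblasts, and in tumours decorin is known as an inhibitor of growth factor receptors, Met among them.

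Marker lists were read on each array. A list of 12 fibroblast markers without any of the 8 genes had medians of 13.14 to 13.31 on the 6 fibroblast arrays and of 8.49 and 8.09 in CSC. In TEC it was 8.70 on replicate 1 and 11.31 on replicate 2. Leukocyte markers (12 genes) had medians of 13.19 and 12.81 in TEC and of 11.33 and 10.78 in CSC. Epithelial markers (13 genes) had medians of 9.24 and 9.61 in TEC and of 12.14 and 11.85 in CSC, and of 5.92 to 6.87 on the fibroblast arrays. Medians of different lists rest on different probes and show no order of cell types within an array. Leukocyte medians were 5.92 to 6.07 in COF and 6.85, 6.79 and 8.08 in CAF. Array medians lay between 6.89 and 7.02, lower quartiles between 5.05 and 5.26. The 3' minus 5' log2 difference of the Actb control probe sets was 0.66 to 0.76 in COF, 0.59 to 0.61 in CAF, 0.32 and 0.46 in TEC and 0.63 and 0.62 in CSC, and was not tested as a factor.

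The fibroblasts carried the highest levels of all 8 genes, CAF and COF each leading for 4. Mean levels were highest in COF for Dcn, Lum, Ogn and Omd, and in CAF for Bgn, Fmod, Prelp and Aspn. The TEC mean came next and the CSC mean was lowest for every gene, and the TEC mean stood on 2 arrays far apart. These are bulk samples, in which fewer cells of a type and less RNA per cell cannot be told apart.

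**Figure D1:**
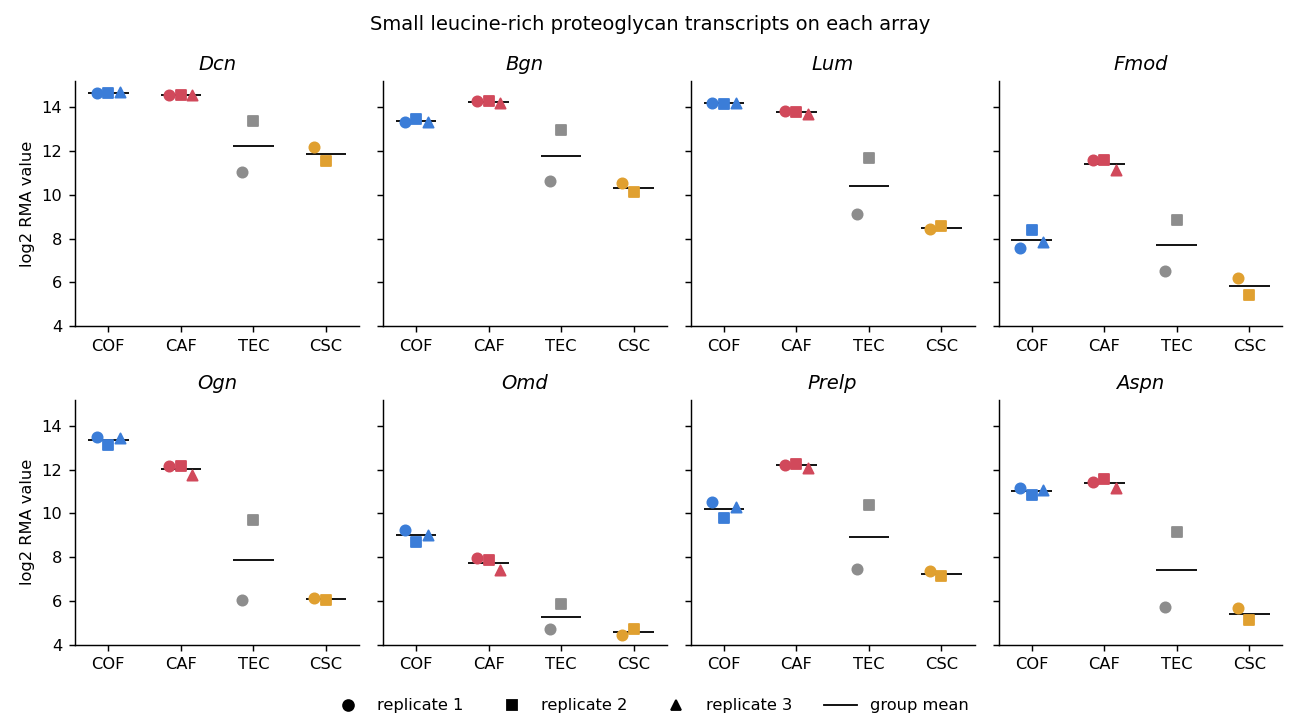
Log2 RMA value (y axis) of each of the 8 genes on each of the 10 arrays, by group (x axis), with the replicate number as symbol and the group mean as a line. CAF lie above COF for Bgn, Fmod, Prelp and Aspn and below COF for the other 4 genes, and TEC replicate 2 lies above TEC replicate 1 in each panel.

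Decorin, biglycan and asporin form class I of the family. Dcn, which encodes decorin, a collagen-binding and TGF-beta-binding proteoglycan, read 14.66, 14.65 and 14.68 on COF replicates 1 to 3 and 14.58, 14.57 and 14.58 on the CAF arrays. It read 11.06 and 13.39 in TEC and 12.17 and 11.56 in CSC. On the fibroblast arrays this probe set ranked 1 or 2 of 22690 in COF and 3 or 4 in CAF, so it sat at the top of the scale there, and whether its signal was saturated was not tested. Bgn encodes biglycan, which binds collagen and, once released, Toll-like receptors. It read 13.34, 13.46 and 13.31 in COF, 14.29, 14.28 and 14.18 in CAF, 10.62 and 12.95 in TEC and 10.52 and 10.14 in CSC. CAF were thus above all other arrays for Bgn. Aspn encodes asporin, a member without a glycosaminoglycan chain that binds collagen and TGF-beta. It read 11.14, 10.81 and 11.07 in COF against 11.42, 11.56 and 11.18 in CAF, which just failed to overlap, 5.69 and 9.16 in TEC and 5.69 and 5.10 in CSC.

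Lumican, fibromodulin, osteomodulin and PRELP belong to class II, whose members carry keratan sulfate or none. Lum, for the fibril organiser lumican, read 14.21, 14.16 and 14.18 in COF and 13.84, 13.77 and 13.69 in CAF, with 9.13 and 11.68 in TEC and 8.43 and 8.56 in CSC. Fmod, for fibromodulin, which guides collagen fibril assembly and cross-linking, read 7.59, 8.40 and 7.84 in COF and 11.59, 11.58 and 11.12 in CAF. It read 6.50 and 8.86 in TEC and 6.21 and 5.43 in CSC. The COF arrays stood little above the array median for Fmod, and TEC replicate 2 stood above all 3 of them.

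Prelp encodes a heparan sulfate-binding protein that links basement membranes to collagen. It read 10.54, 9.79 and 10.29 in COF, 12.21, 12.27 and 12.09 in CAF, 7.46 and 10.37 in TEC and 7.34 and 7.12 in CSC. Omd, for osteomodulin, a keratan sulfate proteoglycan best known from bone, read 9.24, 8.70 and 9.03 in COF and 7.96, 7.88 and 7.40 in CAF. It read 4.70 and 5.86 in TEC and 4.41 and 4.72 in CSC, so on 3 of the 4 TEC and CSC arrays it lay below the lower quartile, where background limits the size of a difference. Ogn, for osteoglycin or mimecan, a class III member that acts on fibril formation, read 13.48, 13.12 and 13.43 in COF and 12.16, 12.16 and 11.75 in CAF. It read 6.05 and 9.67 in TEC and 6.13 and 6.03 in CSC. Neither Prelp nor Ogn overlapped between the fibroblast groups, in opposite directions.

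Set against fibroblasts of the control gland, the tumour fibroblasts showed a divided family. Fmod rose by 3.49 ± 0.52 on the log2 scale (SE, n = 3 and 3, adjusted p = 0.00101), which is 11.2-fold, and Prelp rose by 1.99 ± 0.59 (adjusted p = 0.0270), or 3.96-fold. Omd was lower in CAF, at -1.24 ± 0.29 with an adjusted p of 0.00924, or 2.36-fold. These 3 of 8 genes passed the test (limma on all 10 arrays, adjusted p under 0.05). Of these 2 were higher in CAF and 1 was lower, where 34.8% of all 12394 genes passed, 18.1% as higher and 16.7% as lower. The share of the 8 genes that passed was near that of all genes. Their changes were large beside the rest, with a median absolute difference of 1.06 against 0.24 over all genes. All genes here include those with low values, where background limits the size of a difference. The 8 genes were also chosen with earlier results of these data known. Only 0.339% of genes differed by as much as Fmod and 1.57% by as much as Prelp. The signed median of the 8 was 0.15, against 0.018 over all genes.

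The other 5 genes did not pass in that fit. The difference was 0.88 for Bgn (95% interval -0.16 to 1.93, adjusted p = 0.180), 0.38 for Aspn (-1.17 to 1.93, adjusted p = 0.737) and -0.42 for Lum (-1.54 to 0.70, adjusted p = 0.586). Dcn differed by -0.088 (-1.15 to 0.97, adjusted p = 0.920) and Ogn by -1.32 (-2.93 to 0.28, adjusted p = 0.195). Yet no gene of the 8 had overlapping CAF and COF arrays, 4 lying higher and 4 lower in CAF, and this held for 56.6% of all genes.

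The fit on 10 arrays shares 1 estimate of the spread, and the 2 TEC arrays lay far apart for these genes. The residual SD of each gene is drawn by limma toward a value shared by all genes, so it is not the spread seen between arrays. After this it was 0.35 to 0.87 for the 8 genes in the fit on 10 arrays. It was 0.073 to 0.27 when the model was fitted to the 6 fibroblast arrays. In that narrower fit 7 of the 8 genes passed, 4 higher and 3 lower in CAF, where 45.9% of all genes passed, 24.5% as higher and 21.4% as lower. Bgn (0.88 ± 0.073, adjusted p = 1.25e-04) and Aspn (0.38 ± 0.13, adjusted p = 0.0430) were added to the genes that rose. Ogn (-1.32 ± 0.14, adjusted p = 3.75e-04) and Lum (-0.42 ± 0.069, adjusted p = 0.00232) were added to those that fell. Dcn did not pass (-0.088 ± 0.060, adjusted p = 0.277), and its interval ran from -0.23 to 0.052. A fit on the 8 arrays other than TEC, chosen after seeing the data, called 6 of them, 3 higher and 3 lower, without Aspn (adjusted p = 0.109); 41.1% of all genes passed there, 21.7% as higher and 19.5% as lower.

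The call for Prelp depended on which arrays entered the fit. It passed in the limma fit on the 6 fibroblast arrays (adjusted p = 1.65e-04) and in that on the 8 arrays other than TEC (adjusted p = 7.20e-05). With all 4 groups in the fit it was less firm. The closest pairs of arrays, CAF replicates 1 and 2 and COF replicates 1 and 3, were averaged in another setting. Fmod alone of the 8 then passed, while Prelp differed by 2.06 (adjusted p = 0.144) and Omd by -1.26 (adjusted p = 0.0743). In that setting 1805 of 12394 genes passed, against 4309 in the main fit, so fewer genes of every kind were called. Leaving out any fibroblast array gave Prelp a difference of 1.78 to 2.15 with an adjusted p of 0.0525 to 0.0809. Omd passed with each of the 10 arrays left out in turn (adjusted p of at most 0.0392).

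**Figure D2:**
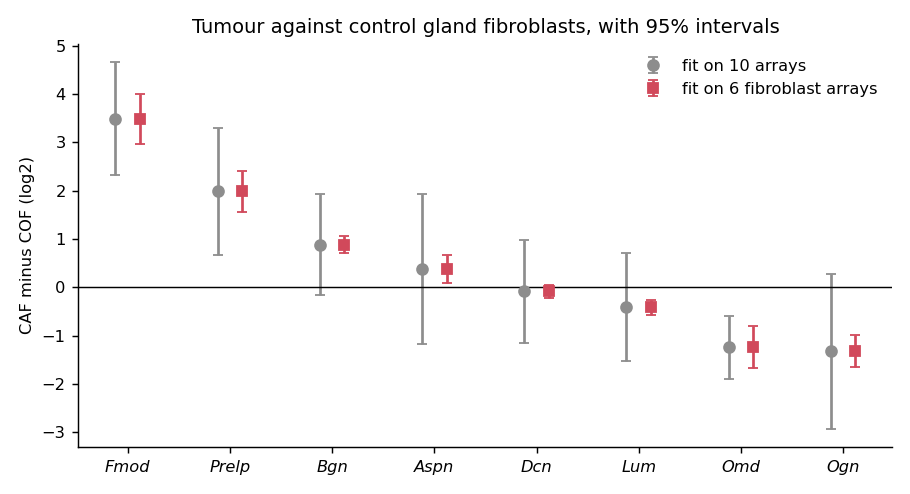
CAF minus COF difference on the log2 scale (y axis) of each gene (x axis, in order of the difference), as estimate and 95% interval in the fit on 10 arrays (grey circles) and on the 6 fibroblast arrays (red squares). The estimates are the same in both fits, from 3.49 for Fmod to -1.32 for Ogn, and the intervals of Bgn, Aspn, Lum and Ogn leave 0 only in the fit on fibroblasts.

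Further probe sets of the same genes gave like differences between CAF and COF. The 6 probe sets of Fmod differed by 2.71 to 3.49, all of them passing when every probe set was tested (adjusted p of at most 0.00203). The other probe set of Prelp differed by 1.55 (adjusted p = 0.0101). That of Ogn differed by -1.48 (adjusted p = 0.0762), and the 3 of Bgn by 0.81 to 0.88. The other probe set of Aspn overlapped between the groups, with 10.36 as its highest COF value and 10.33 as its lowest CAF value. Some of these sets, among them those used for Fmod, Prelp and Aspn, are of kinds that can hybridise to related transcripts (names ending in _x_at or _s_at). Without such sets Fmod, Prelp and Omd were still the genes called, with Fmod at 2.86 and Prelp at 1.55.

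Several of the genes are neighbours in the genome. By the order of protein-coding genes in RefSeq (GRCm38.p6), Dcn, Lum, Kera and Epyc follow each other, as do Optc, Prelp and Fmod, and Aspn, Omd and Ogn, while Bgn has no such neighbour. Kera encodes keratocan and Epyc epiphycan, relatives known from cornea and growth cartilage. In the group with Dcn, Kera was lower in CAF by -2.62 ± 0.21 with an adjusted p of 5.25e-05, reading 8.57, 9.21 and 8.75 in COF and 6.51, 6.09 and 6.06 in CAF. Epyc was lower by -1.89 ± 0.17 with an adjusted p of 9.31e-05, from 9.57, 9.80 and 9.49 to 7.85, 7.84 and 7.51. Lum and Dcn beside them differed by -0.42 and -0.088. In the next group Prelp and Fmod rose, while Optc, for opticin of the eye, differed by 0.029 (adjusted p = 0.910) at 5.50 to 5.90 on the 6 fibroblast arrays, below the array medians. In the group with Aspn, Omd and Ogn differed by -1.24 and -1.32, and Aspn next to them by 0.38.

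**Figure D3:**
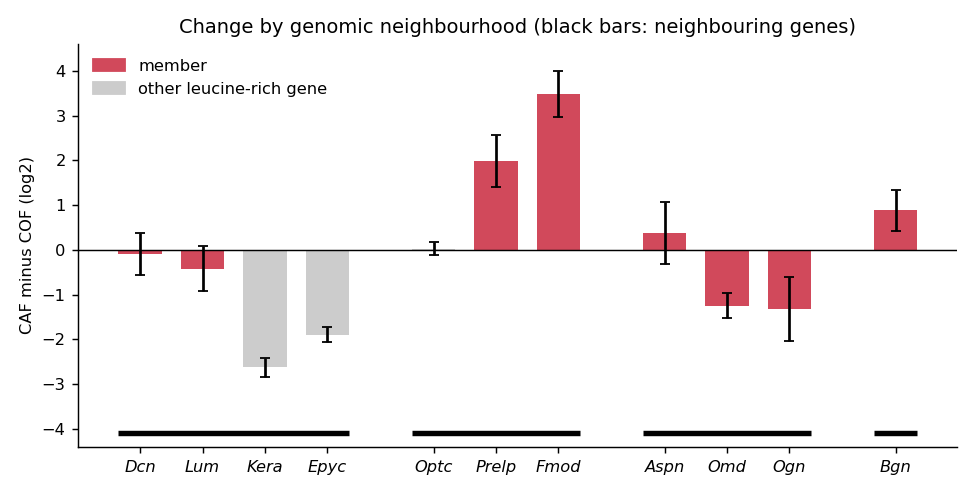
CAF minus COF difference on the log2 scale (y axis; bars with SE from the fit on 10 arrays) of the 8 genes (red) and 3 other leucine-rich genes (grey), in genomic order, with a black line under genes that are neighbours. Prelp and Fmod are both above 0, Lum, Kera and Epyc below 0, and Aspn is on the other side of 0 from its neighbours Omd and Ogn.

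The changes of 6 pairs of genes were compared within arrays, as the CAF minus COF change of one gene minus that of the other. Aspn differed from its neighbours by 1.70 ± 0.056 against Ogn (SE; 95% interval 1.55 to 1.86) and by 1.62 ± 0.11 against Omd (1.31 to 1.93). The changes of Ogn and Omd differed by -0.080 (-0.28 to 0.12), with an exact permutation p of 0.30. Fmod and Prelp differed by 1.5 (0.20 to 2.81), Bgn and Dcn by 0.97 (0.80 to 1.15) and Lum and Dcn by -0.33 (-0.46 to -0.20). Dcn was within the top 4 probe sets of every fibroblast array, and Bgn and Lum came within 0.45 and 0.50 of the array maximum, so the ceiling of the scale may limit their changes and was not tested. Each of these pairs other than Ogn and Omd had an exact two-sided permutation p of 0.10, the smallest that 3 against 3 arrays allow (0.12 after Benjamini-Hochberg adjustment over the 6 pairs), so none could pass 0.05.

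The bases before the start of 5 of these genes are given because they are neighbours with like or unlike changes. RefSeq promoters (GRCm38.p6) were matched by symbol for 6 of the 8 genes, and the 250 bases upstream of the start are printed 5′ to 3′ on the strand of the gene for Fmod and Prelp, which rose together, and for Aspn, Omd and Ogn, which stand side by side and whose CAF values lay on different sides of COF. Capitals mark, on either strand, TATAAA (the letters of a TATA box), CCAAT (those of a CCAAT box), GGGCGG (those of a GC box) or TGANTCA (those of the AP-1 site). The windows are chr1:134037004-134037253 (plus strand) for Fmod, chr1:133921402-133921651 (minus strand) for Prelp, chr13:49544193-49544442 (plus strand) for Aspn, chr13:49582212-49582461 (plus strand) for Omd and chr13:49607765-49608014 (plus strand) for Ogn.
Fmod: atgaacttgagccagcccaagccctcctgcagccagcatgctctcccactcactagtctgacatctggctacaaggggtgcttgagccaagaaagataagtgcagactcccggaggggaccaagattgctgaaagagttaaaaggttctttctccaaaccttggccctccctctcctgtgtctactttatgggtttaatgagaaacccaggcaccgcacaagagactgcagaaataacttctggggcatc
Prelp: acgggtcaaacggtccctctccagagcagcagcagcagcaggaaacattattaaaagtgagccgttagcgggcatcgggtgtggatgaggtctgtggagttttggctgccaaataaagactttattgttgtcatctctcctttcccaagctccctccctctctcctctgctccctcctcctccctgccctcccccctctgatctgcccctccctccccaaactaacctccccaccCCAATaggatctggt
Aspn: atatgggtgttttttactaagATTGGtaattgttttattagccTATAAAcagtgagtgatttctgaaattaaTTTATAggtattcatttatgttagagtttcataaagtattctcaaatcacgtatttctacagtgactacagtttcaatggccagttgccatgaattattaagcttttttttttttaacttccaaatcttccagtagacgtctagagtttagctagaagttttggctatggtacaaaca
Omd: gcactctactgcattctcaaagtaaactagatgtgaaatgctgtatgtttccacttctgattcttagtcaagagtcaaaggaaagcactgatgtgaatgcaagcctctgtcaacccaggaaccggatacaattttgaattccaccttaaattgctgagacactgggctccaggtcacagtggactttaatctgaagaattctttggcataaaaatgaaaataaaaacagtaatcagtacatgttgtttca
Ogn: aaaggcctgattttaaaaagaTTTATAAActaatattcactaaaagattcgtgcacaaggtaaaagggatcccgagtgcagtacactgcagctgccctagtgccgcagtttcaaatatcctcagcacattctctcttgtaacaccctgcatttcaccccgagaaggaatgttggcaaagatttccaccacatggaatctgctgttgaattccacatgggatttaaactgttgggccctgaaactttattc
Of the letters searched, TATAAA stood in 12.4% of 32851 promoter windows of this length, CCAAT in 33.8%, GGGCGG in 32.7% and TGANTCA in 6.75%. Fmod and Omd held none of them. Prelp held CCAAT, ending 11 bases before the start. Ogn held TATAAA on both strands in overlap, from 229 to 222 bases before the start. Aspn held TATAAA from 207 to 202 bases before the start and, on the opposite strand, from 178 to 173. It also held CCAAT on the opposite strand, from 229 to 225 bases before the start. The share of G and C was 51.2% for Fmod and 55.6% for Prelp, near the median of 52.4% over all windows, and 30% for Aspn, 38.4% for Omd and 42% for Ogn. These matches describe letters and no binding was measured.

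All 8 genes were higher in fibroblasts than in CSC, the comparison that sets the stroma against the cells labelled as stem cells. Against CSC, 8 of 8 passed as higher in CAF, where 66.5% of all genes passed and 33.4% as higher, and 8 of 8 as higher in COF, where 69.5% passed and 35.8% as higher. Both comparisons use the same CSC arrays. Aspn (5.99 ± 0.77), Ogn (5.94 ± 0.79), Fmod (5.61 ± 0.58) and Lum (5.27 ± 0.55) differed between CAF and CSC (difference ± SE, n = 3 and 2, limma, adjusted p of at most 1.59e-04). The SE came from the fit on all arrays, so the spread between the TEC arrays entered it. Prelp (4.96 ± 0.65), Bgn (3.92 ± 0.51), Omd (3.18 ± 0.32) and Dcn (2.71 ± 0.52, adjusted p = 0.00150) also passed. Aspn, Ogn, Fmod and Omd lay below the array median in CSC, so background limits the size of their differences and folds, and no order of size is read from them. Between COF and CSC Ogn differed by 7.26 ± 0.79 and Fmod by 2.12 ± 0.58 (adjusted p = 0.00908), with the same limit. The 6 probe sets of Fmod differed by 0.79 to 2.13 between COF and CSC. The one at 0.79 did not pass when every probe set was tested (limma, adjusted p = 0.199). Without CSC replicate 2, Fmod differed by 1.73 between COF and CSC (adjusted p = 0.0766). The median difference of the 8 genes was 5.11 for CAF and 3.73 for COF, against 0.015 and 0.044 over all genes. All 12 fibroblast markers also passed as higher in each, with medians of 4.86 and 4.53, and all 13 epithelial markers as lower.

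Dcn, though lower in CSC than in fibroblasts, stayed far above the array median there, and so did Bgn. The CSC values of Dcn, 12.17 and 11.56, ranked 629 and 958 of 22690 probe sets. Those of Bgn, 10.52 and 10.14, ranked 2040 and 2619. The arrays of CSC differed by 0.61 for Dcn, higher on replicate 1, while the 12 fibroblast markers differed by a median of 0.36 in the same direction.

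The 2 TEC arrays differed for all 8 genes, each higher on replicate 2. The difference was 3.63 for Ogn, 3.47 for Aspn, 2.91 for Prelp and 1.16 for Omd, with Lum at 2.54, Fmod at 2.36 and Dcn and Bgn at 2.33 each. Omd, Aspn, Ogn and Fmod lay below the array median on TEC replicate 1 (4.70, 5.69, 6.05 and 6.50). Background thus limits the size of their differences, and no order is read from them. The median difference over the 8 genes was 2.45, against 2.64 (1.65 to 3.12) over the 12 fibroblast markers and -0.060 over all genes. The fibroblast marker Pdgfra read 7.02 and 9.80 on TEC replicates 1 and 2, whereas the leukocyte marker Ptprc read 13.38 and 13.09 and the epithelial marker Epcam 10.70 and 11.39. The genes thus moved with the fibroblast markers between these arrays, and the part of those markers in the result was not tested.

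**Figure D4:**
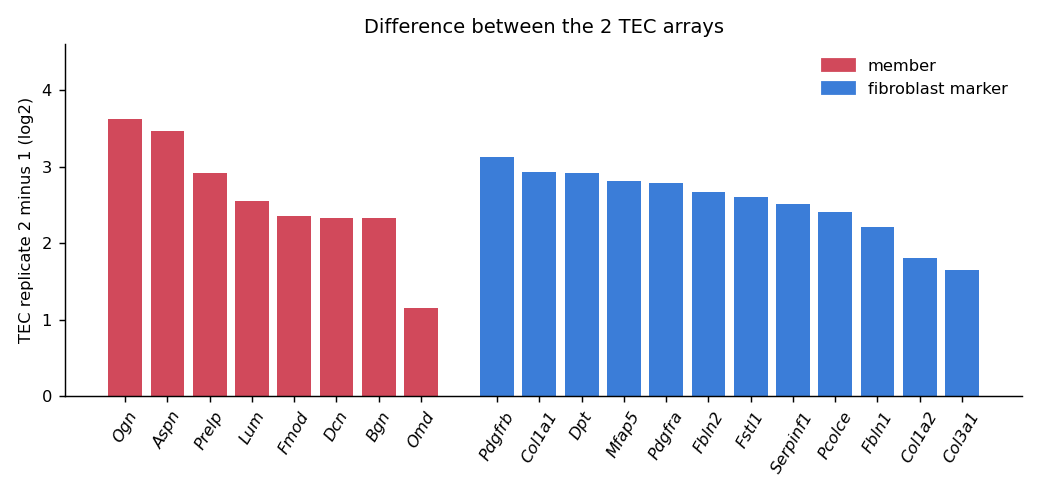
Difference between TEC replicate 2 and TEC replicate 1 on the log2 scale (y axis) for the 8 genes (red) and 12 fibroblast markers (blue), 1 bar per gene and with no error since each is a pair of arrays. All 20 bars are above 1, from 1.16 for Omd to 3.63 for Ogn.

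The calls of CSC against TEC and of COF against TEC depended on which TEC array was read. Between CSC and TEC, Lum (-1.91 ± 0.61, adjusted p = 0.0287) and Fmod (-1.86 ± 0.63, adjusted p = 0.0377) passed as lower in CSC, 2 of 8 genes where 46.7% of all genes passed and 20.1% as lower. The other 6 had differences of -0.36 to -2.03 and did not pass. The arrays of CSC lay below those of TEC for 5 genes and overlapped for Dcn, Ogn and Omd, and 68.7% of all genes had no overlap. Without TEC replicate 1 all 8 passed as lower in CSC. Without TEC replicate 2, Lum (-0.64) was still lower in CSC, Dcn was higher in CSC by 0.81 (adjusted p = 0.0115) and 6 genes did not pass. In a fit on the 4 arrays of CSC and TEC alone 0 of 8 passed (limma; 0 at an unadjusted p under 0.05), where 3013 of 12394 genes did.

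The fibroblast groups compared with TEC gave the following values. All 8 genes passed as higher in CAF than in TEC, where 67.5% of all genes passed and 38.6% as higher, by 2.35 for Dcn to 4.16 for Ogn, and all 8 still passed when TEC replicate 1 or TEC replicate 2 was left out. The values moved with the array left out, from 1.18 without TEC replicate 1 to 3.52 without TEC replicate 2 for Dcn, from 2.35 to 5.98 for Ogn and from 2.23 to 5.69 for Aspn. Between COF and TEC 6 of 8 passed as higher in COF, where 68.2% of all genes passed and 38.5% as higher. Prelp (1.29 ± 0.65, adjusted p = 0.107) and Fmod (0.26 ± 0.58, adjusted p = 0.709) did not. Against TEC replicate 1 alone they were 2.75 and 1.44 higher in COF (adjusted p = 1.64e-05 and 0.00779). Against replicate 2 alone they were lower in COF, by -0.16 and -0.92, and did not pass (adjusted p = 0.584 and 0.0548).

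For each gene the non-member genes with the most similar profile over the 10 arrays were found, by the root mean square difference of log2 values after subtraction of each gene's mean. Lum lay closest to Nid1, a basement membrane protein (0.13), the surface protease Fap (0.14) and the sialomucin Cd34 (0.14), where the median over all genes was 2.37. Aspn lay closest to the aggrecanase Adamts5 (0.13), Islr (0.22) and the microfibril gene Mfap5 (0.22). Dcn was most like Vasn, a TGF-beta-binding membrane protein (0.16), Rnase4 (0.23) and Bmp1 (0.25), and Bgn most like Igfbp7 (0.16), Tmem45a (0.16) and Ikbip (0.21).
Among the genes that changed most in CAF, Fmod was most like C1qtnf3 (0.31), the matricellular gene Ccn3 (0.34) and Reg1 (0.41). C1qtnf3 read 8.22, 8.51 and 8.48 in COF and 12.08, 12.20 and 11.99 in CAF. Prelp was most like the growth factor gene Igf1 (0.22), the chemokine gene Cxcl12 (0.32) and Kcne4 (0.32). Igf1 read 11.17, 11.21 and 11.23 in COF and 13.00, 13.09 and 12.96 in CAF. Ogn was most like Pcolce2, an enhancer of procollagen cleavage (0.25), the PDGF receptor Pdgfrb (0.36) and Itih5 (0.43). Omd was most like Qpct (0.23), Runx1t1 (0.24) and the glypican Gpc6 (0.25). Within the family the closest pairs were Lum and Aspn (0.44), Dcn and Bgn (0.52) and Bgn and Prelp (0.53), and the farthest were Fmod and Ogn (2.35). All 10 arrays enter these distances, so the gap between the fibroblast arrays and the TEC and CSC arrays weighs most.

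Related genes were read from 6 lists. Among other leucine-rich genes of the matrix 4 of 10 were measured. Kera and Epyc, given above, were the ones that passed between CAF and COF, both as lower. Over all genes 34.8% passed and 16.7% as lower. In the fit on 6 fibroblast arrays 0 rose and 2 fell, where 24.5% and 21.4% of all genes did. Chad, for chondroadherin, read 3.76 to 4.29 on the fibroblast arrays, under the lower quartile. Against CSC 3 were higher in CAF and 0 lower, where 66.5% of all genes passed and 33.4% as higher. Both Kera (2.46 ± 0.23) and Epyc (4.39 ± 0.19) were higher in CAF than in CSC (adjusted p of at most 1.85e-05). Their CSC means of 3.76 and 3.34 lay in the range of background.

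Enzymes that build the sulfated chains of these proteins passed in each direction. Of 24 measured (32 listed), 9 rose, 2 fell and 13 did not pass, with a median difference of 0.20 against 0.018 over all genes, of which 18.1% rose and 16.7% fell. In the fit on 6 fibroblast arrays 11 rose and 5 fell, where 24.5% and 21.4% of all genes did. B4galt7, which adds a galactose of the linker between core and chain, rose by 1.21 ± 0.16 (adjusted p = 6.61e-04), and Chpf2, a chondroitin polymerising factor, by 0.51 ± 0.097 (adjusted p = 0.00348). The chondroitin sulfotransferases Chst15 (-0.80 ± 0.12) and Chst7 (-0.78 ± 0.13) fell (adjusted p of at most 0.00150). Csgalnact1, which starts the chondroitin chain, read 8.47, 8.70 and 8.54 in COF and 10.35, 10.36 and 10.34 in CAF, with an adjusted p of 0.00390, and is named after its values were seen. Against CSC 17 were higher in CAF and 3 lower, where 66.5% of all genes passed and 33.4% as higher. Papss2, which makes the sulfate donor, was higher in CAF by 4.40 ± 0.24 (adjusted p = 7.26e-07) and Csgalnact2 by 1.78 ± 0.10 (adjusted p = 8.04e-07).

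Collagens that these proteins bind gave different counts in the 2 fits. Of 17 measured members of the fibril collagen list, 2 rose, 0 fell and 15 did not pass, with a median of 0.11 (limma; 2 higher and 0 lower at an unadjusted p under 0.05). The minor fibrillar collagen Col11a1 (2.93 ± 0.61, adjusted p = 0.00534) and the fibril surface collagen Col12a1 (2.25 ± 0.36, adjusted p = 0.00156) rose. The share over all genes was 34.8%. In the fit on 6 fibroblast arrays 5 rose and 4 fell, where 45.9% of all genes passed, and TEC replicates 1 and 2 lay apart for Col1a1 too (9.63 and 12.55), a gene named after its values were seen. Against CSC 13 were higher in CAF and 2 lower, where 66.5% of all genes passed and 33.4% as higher. Col6a3 differed by 3.78 ± 0.28 (adjusted p = 4.69e-06) and Col9a1, a cartilage collagen, by -1.68 ± 0.18 (adjusted p = 3.47e-05).

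Other proteoglycans moved in each direction. Of 22 measured (24 listed), 6 rose, 4 fell and 12 did not pass between CAF and COF (median 0.014), where 18.1% of all genes rose and 16.7% fell. In the fit on 6 fibroblast arrays 9 rose and 4 fell, where 24.5% and 21.4% did. Esm1, for endocan, rose by 2.51 ± 0.26 (adjusted p = 1.58e-04), while Spock2, for a testican (-1.79 ± 0.16, adjusted p = 8.14e-05), and Gpc6, a glypican (-1.32 ± 0.23, adjusted p = 0.00209), fell. Srgn, for serglycin of leukocyte granules, rose by 1.63 ± 0.16 (adjusted p = 1.44e-04). It was higher still in TEC (14.74 and 14.54), and 10 of 12 leukocyte markers also rose in CAF, by a median of 1.46 over the list; their part in this result was not tested. Against CSC 15 were higher in CAF and 5 lower, where 66.5% of all genes passed and 33.4% as higher. Versican, Vcan, was higher in CAF by 5.14 ± 0.25 (adjusted p = 3.27e-07).

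Among 21 reported receptors and growth factor partners, 5 rose, 4 fell and 12 did not pass (median 0.039), where 18.1% of all genes rose and 16.7% fell. In the fit on 6 fibroblast arrays 6 rose and 5 fell, where 24.5% and 21.4% did. Cd14, the co-receptor of Toll-like receptors and also a monocyte marker, rose by 3.07 ± 0.14 (adjusted p = 7.61e-06). It reached 13.64 to 14.59 on the 4 TEC and CSC arrays, where leukocyte markers were high as well. Tgfb3, a ligand bound by decorin and its relatives, rose by 1.33 ± 0.17 (adjusted p = 4.16e-04), and the ATP-gated channel P2rx4 by 0.87 ± 0.092 (adjusted p = 1.84e-04). Kdr, the VEGF receptor, fell (-0.98 ± 0.12, adjusted p = 3.81e-04). Against CSC 10 were higher in CAF and 4 lower, where 66.5% of all genes passed and 33.4% as higher. Among them were Lrp1 (3.15 ± 0.17) and Cd14 (-3.79 ± 0.16) (adjusted p of at most 6.52e-07).

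Of 14 measured proteases reported to cut these proteins 5 rose, 0 fell and 9 did not pass (median 0.28; limma, 5 higher and 1 lower at an unadjusted p under 0.05). The gelatinase Mmp9 (2.99 ± 0.37), the collagenase Mmp13 (3.68 ± 0.47), the tolloid protease Tll1 (1.90 ± 0.33) and granzyme B, Gzmb (3.62 ± 0.67), were higher in CAF (adjusted p of at most 0.00302). Gzmb, a lymphocyte protease, read 8.39, 9.17 and 10.38 on CAF replicates 1 to 3, and the leukocyte median was highest on the same replicate 3. The share that passed in either direction was near the 34.8% of all genes, of which 18.1% rose and 16.7% fell. In the fit on 6 fibroblast arrays 7 rose and 2 fell, where 45.9% of all genes passed, 24.5% as higher and 21.4% as lower. Against CSC 12 were higher in CAF and 1 lower, where 66.5% of all genes passed and 33.4% as higher. Cathepsin K, Ctsk, was higher in CAF by 5.50 ± 0.48 and Mmp14 by 3.36 ± 0.28 (adjusted p of at most 1.12e-05).

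**Figure D5:**
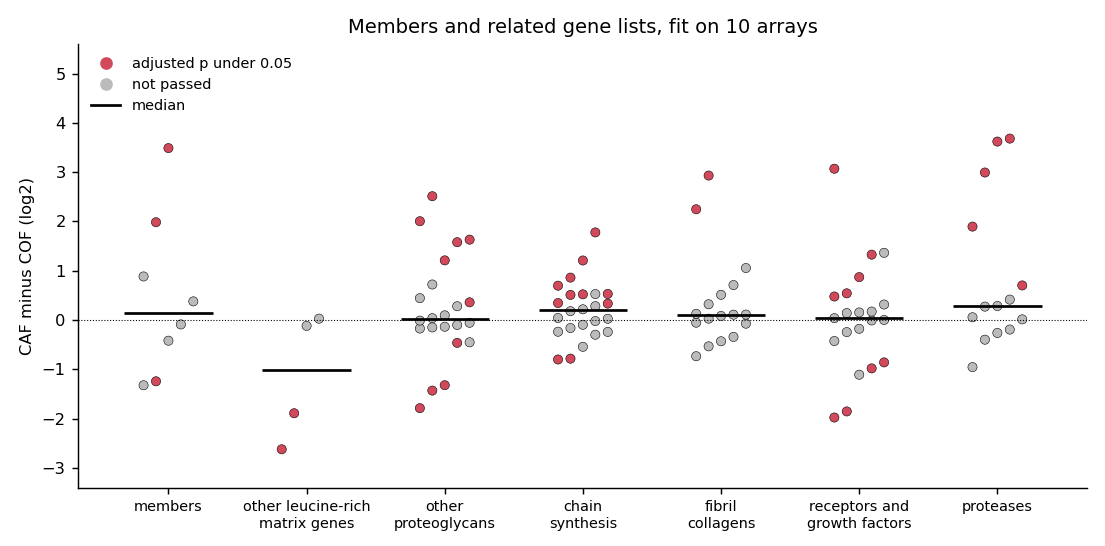
CAF minus COF difference on the log2 scale (y axis) of each measured gene of the family and of 6 related lists (x axis), red where the adjusted p was under 0.05 in the fit on 10 arrays, with the median as a line. The medians are 0.15 for the family and -1.0 for the 4 other leucine-rich genes, and between 0.014 and 0.28 for the other 5 lists.

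Markers of other cell types were also compared between the fibroblast groups in the fit on 10 arrays. Over all genes 18.1% rose and 16.7% fell in that fit, and counts near those shares show no change of a cell type. In CAF 8 of 13 epithelial markers rose and 1 fell, with Epcam at 5.92, 7.22 and 6.49 in COF and 7.74, 8.14 and 8.23 in CAF, and 10 of 12 leukocyte markers rose, with Ptprc at 5.19, 6.57 and 5.78 and then 7.04, 7.35 and 8.88. Of 7 pericyte and smooth muscle markers 2 rose, and Rgs5, a pericyte gene, read 7.07, 7.53 and 7.25 in COF and 9.55, 9.98 and 10.11 in CAF. Of 9 endothelial markers 2 fell and no other passed, and Pecam1 read 4.73 to 5.54 in COF and 4.84 to 4.96 in CAF. Of 4 measured adipocyte markers 2 fell and no other passed, and Adipoq read 5.20 to 6.58 in COF and 4.46 to 5.0 in CAF. Of the 12 fibroblast markers 0 passed in the fit on 10 arrays (limma; 0 higher and 0 lower at an unadjusted p under 0.05). The spread of the 2 TEC arrays enters that fit, so this does not show the markers to be unchanged. Pdgfrb read 12.03, 12.24 and 12.06 in COF and 11.14, 11.25 and 11.30 in CAF. Fstl1 read 13.61, 13.76 and 13.63 in COF and 14.19, 14.18 and 14.16 in CAF. In the fit on 6 fibroblast arrays Col1a1 passed (0.71 ± 0.21, adjusted p = 0.0293), while Col1a2 and Col3a1 did not. The part of cells other than fibroblasts in the changes of the family was not tested.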

How the data were processed

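RNA of the sorted cells, 100 ng of total RNA per array, was hybridised to 10 single-colour Affymetrix arrays, per the labels' protocols. The values in the deposited table are log2 values. The submitters' processing notes name RMA, a method of background correction, quantile normalization and probe set summary. Its version, and whether all arrays were normalized together, were not given in the sources. The values were used as deposited.

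Of 22690 probe sets 20393 had 1 gene symbol, 691 several and 1606 none in the array annotation, and the first kind was used, which gave 12394 genes with 1 probe set each (the highest mean). No filter on low values was applied, and all 8 members were tested. The model had a mean for each group over 10 arrays and was fitted by limma 3.58.1 (lmFit, then eBayes; R 4.3.3). The tests were two-sided, with Benjamini-Hochberg adjustment over all genes and a threshold of 0.05. Other settings were the 2 groups alone, the replicate number as a block, a variance trend, filters, probe set rules, normalizations, averaged pairs of arrays and each array left out. The pipeline was tested on simulated data.

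The members and lists were chosen with earlier results of these data known. From each list up to 4 genes with the smallest adjusted p between CAF and COF, or CAF and CSC, could be named, and for each member the 3 genes nearest in profile. Predicted genes were left out, and Pdgfra, Epcam, Ptprc, Pecam1, Adipoq and Rgs5 were given whatever their values. List symbols were matched to the annotation, with Wisp1 found as Ccn4 through RefSeq. The number of arrays limits the precision.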

Additional observations from a re-analysis of the deposited data

How the results depend on the processing

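The count of genes that passed moved by over 1.5 times in 2 of the 6 comparisons. Between CAF and COF it was 3, where 4309 of all 12394 genes passed. It became 7 with only these 2 groups in the fit (5686 of all genes) and 6 without both TEC arrays (5100, chosen after seeing the data). With close array pairs averaged it became 1 (1805 of all genes). With each array left out in turn it ranged from 2 to 6, the latter without TEC replicate 1 or TEC replicate 2. Between CSC and TEC the count was 2, where 5786 of all genes passed. It became 0 with only these 2 groups in the fit (limma; 0 of the 8 at an unadjusted p under 0.05), where 3013 of all genes passed. It was 0 with close array pairs averaged (2 of the 8 unadjusted, 4875 of all genes passing). At an adjusted p under 0.01 it was 0 too (5 of the 8 unadjusted, 4086 of all genes passing). With arrays left out it ranged from 0, without either CSC array, to 8, without TEC replicate 1.

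The count was 8 for CAF against CSC and for CAF against TEC under every setting run. It was 7 or 8 for COF against CSC and 5 to 8 for COF against TEC. The replicate numbers did not pair COF with CAF (correlations of deviations of 0.13, 0.0063 and -0.082). With the replicate number as a block the count for CAF minus COF was 2, without Prelp, and that for CSC minus TEC was 1. The other settings kept all 6 counts within 1.5 times.

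Of 1032 differences of single genes computed under other settings, 973 kept their direction and their side of the threshold, 31 fell short of it, 23 newly passed and 5 changed sign. Without TEC replicate 2, CSC minus TEC became 0.81 for Dcn and 0.038 for Ogn, and without TEC replicate 1 it was -1.53 and -3.59. Without TEC replicate 1, COF minus TEC became -0.92 for Fmod and -0.16 for Prelp, and without TEC replicate 2 it was 1.44 and 2.75. COF minus TEC was -0.15 for Fmod without probe sets ending in _x_at or _s_at. The groups of 2 and 3 arrays limit what can be told apart, and Omd in CSC and on TEC replicate 1 lay near the background.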
